A study of Mus musculus with 29 samples.

Results

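Refed livers held more messenger RNA for 7 of 10 genes of the endoplasmic reticulum folding system than fasted livers, and the K556R allele of Prox1 gave no called difference in any of the 10. The 7 were called over both genotypes and both batches together, where 12.9% of all tested genes were called higher, and batch 2 alone called 0 of the 10. The genes are Xbp1, Hspa5, Hsp90b1, Pdia4, Dnajb9, Dnajb11, Sdf2l1, Hyou1, Manf and Creld2. They were taken by name from the gene count table, each through 1 Ensembl identifier, and are 10 of 54532 genes listed there. All 10 were among the 15603 genes with enough counts to test.

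The data are poly-A RNA libraries from livers of obese male mice, made to study SUMO attachment to Prox1, a transcription factor of hepatocytes. K556R livers carry a hepatocyte knock-in of a Prox1 form that cannot take up SUMO, switched on by Cre, and wild-type (WT) livers are labelled so with no further detail. The 29 libraries comprise 8 refed K556R livers (4 in batch 1 and 4 in batch 2), 7 fasted K556R livers (4 and 3), 6 refed WT livers (3 and 3) and 8 fasted WT livers (4 and 4). According to the protocol given for every sample, the mice ate chow to 8 weeks of age, when Cre recombination was induced, then 18 weeks of a diet with 45% fat and 20% fructose. The livers were collected at ZT 15 to 17, hours counted from lights on. The driver of Cre, and whether WT mice also received Cre, are not given in the sources used here. Nothing in the labels says that each library is a different mouse, and the p-values therefore reflect library-to-library spread, which may be technical.

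The endoplasmic reticulum folds secreted and membrane proteins, and hepatocytes, which make most plasma proteins, depend heavily on it. When unfolded proteins build up, sensors in its membrane start the unfolded protein response. IRE1 removes a short intron from Xbp1 RNA so that an active transcription factor is made, ATF6 is cut to release another factor, and PERK slows translation and raises ATF4. XBP1 and ATF6 are known to raise the genes of chaperones, above all Hspa5, which encodes BiP, the main chaperone of this compartment and the brake on the sensors. Counts over the whole Xbp1 gene do not separate the spliced from the unspliced form.

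The sequences through which this response is known to act are shown for the members in which they were found. Xbp1 carries the target of IRE1 in exon 4 of 5 of a GENCODE M21 transcript, at chr11:5524259-5524324 (mm10, plus strand), and the 26 bases that IRE1 removes are in capitals. Because 26 leaves a remainder of 2 on division by 3, their removal shifts the reading frame. They lie between the cut points of a pair of CNGCNG loops, 1 of 2 such pairs spaced that far apart in the coding sequence. The other pair lies in exon 1 and is not the known site.
Xbp1 IRE1 target: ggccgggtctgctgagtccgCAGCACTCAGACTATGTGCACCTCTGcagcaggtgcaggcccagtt

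The promoter element read by ATF6 together with NF-Y, known as the ER stress response element (ERSE), is written here as CCAAT, 9 bases of any kind, then CCACG. It was searched on both strands of RefSeq promoter windows (GRCm38.p6, 250 bases before each start and 50 from it on). Such a window existed for 8 of the 10 genes, Hyou1 and Manf having none in the table. The element was found in 3 of the 8, Hspa5, Hsp90b1 and Creld2, against 37 of 27025 genes with a window (0.137%). Each is printed in the direction of the element, with both parts in capitals. The site of Hspa5 is at chr2:34772020-34772049, read along the gene (plus strand). Those of Hsp90b1, a minus-strand gene, are at chr10:86705632-86705661, read along the gene, and at chr10:86705528-86705557, read against it. That of Creld2, a plus-strand gene, is at chr15:88819514-88819543, read against the gene.
Hspa5 ERSE: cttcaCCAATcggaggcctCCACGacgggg
Hsp90b1 upstream ERSE: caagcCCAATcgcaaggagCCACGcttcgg
Hsp90b1 downstream ERSE: actcaCCAATcgtgcctcaCCACGcactct
Creld2 ERSE: gtggaCCAATtgaggctcgCCACGagaagc
Counted from the RefSeq start base as 0, the elements span positions -65 to -47 in Hspa5, -212 to -194 and -107 to -89 in Hsp90b1 and -126 to -108 in Creld2. A shorter variant, ATTGG, 1 base of any kind, then CCACG (ERSE-II), was found in Dnajb11 at positions 7 to 17, at chr16:22857852-22857862 on the plus strand, and in 12 of 27025 genes (0.0444%).
Dnajb11 ERSE-II: ATTGGcCCACG
The core of the XBP1 site, TGACGTGG, was in none of the 8 windows and in 193 of 27025 genes (0.714%). The 5 letters CCACG alone, which every ERSE also contains, were in 7 of the 8 windows, Xbp1 being the exception, and in 35.5% of all genes. These are matches of letters in 1 window per start and say nothing of whether a factor bound there.

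Libraries held 14385218 to 27278251 gene counts, and the members were counted deeply, with 74 counts for Sdf2l1 in its lowest library and 21132 for Hspa5 in its highest. Whole-gene Prox1 counts cannot tell which allele was read. Prox1 averaged 149.7 ± 25.5 CPM in refed K556R livers, 186.4 ± 12.3 in fasted K556R livers, 164.1 ± 22.7 in refed WT livers and 174.0 ± 13 in fasted WT livers (SD, n = 8, 7, 6 and 8). CPM values are counts brought to a common library size with TMM scaling in edgeR. A list of 8 hepatocyte genes led by Alb summed to 58010 CPM or more in every library.

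Some libraries stood apart in the 10 genes as a group. Their mean log2 CPM was highest at 7.54 in refed K556R replicate 4 of batch 1, followed by 6.93 in refed K556R replicate 1 of batch 1 and 6.78 in refed WT replicate 1 of batch 2. Among fasted libraries it was highest at 6.50 in WT replicate 3 of batch 2 and lowest at 5.68 in WT replicate 2 of batch 2. Refed K556R replicate 4 of batch 1 also had the lowest summed CPM of 29 libraries for the stellate cell and fibroblast list (207.6), the endothelial list (110.1), the neutrophil list (2.97) and the adipocyte list (10.6). Refed WT replicate 1 of batch 2 was next lowest for stellate cells and fibroblasts (237.9) and for neutrophils (3.03), and lowest for plasma and B cells (9.90) and for cholangiocytes (42.9). It ranked 27 of 29 libraries, counted from the highest, for adipocytes (11.3) and for hepatocytes (62750). Fasted WT replicate 3 of batch 1 was highest for plasma and B cells, at 326.3 CPM, with at most 38.5 CPM in the other libraries. It was also highest for macrophages (733.2), and its mean log2 CPM of the 10 genes was 5.98. Some of these sums rest on few genes. Over all libraries the adipocyte sum came mostly from Fabp4 (mean 20.0 CPM) and Cfd (6.80), with 0 counts of Lep and at most 4 of Adipoq and 5 of Plin1 in any. The neutrophil sum came mostly from Csf3r (3.67) and the cholangiocyte sum from Spp1 (86.2). In bulk liver RNA, fewer cells of a type and less RNA per cell cannot be told apart.

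The pancreas is rich in these same chaperones, and its acinar markers were therefore checked. The summed level of 13 acinar genes was 34.1 CPM in refed K556R replicate 4 of batch 1 and at most 20.6 CPM in the other libraries. Of that sum, 33.8 CPM came from Cela1. Cpb1, Amy2a1, Amy2a5, Try4 and Try5 had 0 counts in every library, and Prss2, Cpa1, Pnlip, Ctrb1 and Cel had at most 2 counts in any. Cela2a had up to 16 counts in a library and 73 over all of them, and Cela3b up to 6 and 37. The part of the other cell types in the values of these libraries was not tested, and the refeeding counts are given with and without refed K556R replicate 4 of batch 1 and refed WT replicate 1 of batch 2.

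**Figure D1:**
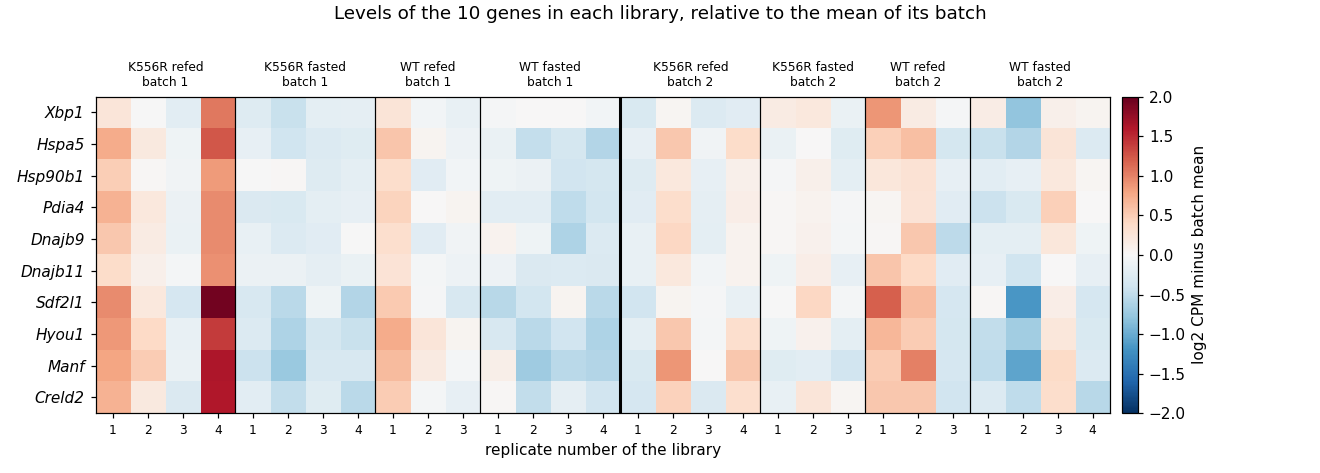
Log2 CPM of each of the 10 genes (rows) in each of the 29 libraries (columns), minus the gene's mean over the libraries of the same batch, with red for higher and blue for lower. The genes shift together within a library, most of all in refed K556R replicate 4 of batch 1, where the mean log2 CPM of the 10 genes was 7.54.

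Levels per kilobase of exon placed Hspa5 first. It averaged 116.5 ± 43.1 CPM per kilobase over the 29 libraries (SD), followed by Hsp90b1 at 90.8 ± 20.5, Pdia4 at 58.5 ± 15.4 and Xbp1 at 49.1 ± 14.4. Dnajb9 (20.3 ± 5.92), Dnajb11 (19.0 ± 4.37), Creld2 (17.4 ± 7.70), Hyou1 (13.7 ± 5.88), Manf (12.5 ± 6.32) and Sdf2l1 (8.94 ± 5.07) formed a lower group on the same scale. Between neighbours in this order, the steps from Hsp90b1 to Pdia4 and from Xbp1 to Dnajb9 exceeded the SD of both genes, and the others did not. By level per kilobase the members ranked between percentiles 76.0 and 97.4 of the tested genes.

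Refeeding was the first comparison. Averaged over both genotypes, with batch in the model, 7 of the 10 genes rose in refed livers. The 7 are Hspa5, Hyou1, Manf, Dnajb11, Creld2, Sdf2l1 and Pdia4. All 10 fold changes were above 0, with a median of log2 0.43. The median over all tested genes was 0.006, a value that TMM scaling keeps near 0. The 10 genes vary together from library to library, so their shared sign is not 10 separate results. Calls were made with edgeR's quasi-likelihood test, at an adjusted p (Benjamini-Hochberg, across all 15603 genes) below 0.05, and 12.9% of tested genes were called higher in this contrast. Without refed K556R replicate 4 of batch 1 and refed WT replicate 1 of batch 2, 6 of the 10 were called and Sdf2l1 was not. Both libraries were chosen for high values among these same genes, so smaller rises without them follow from the choice.

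Xbp1 (ENSMUSG00000020484, chr11:5520659-5525893, mm10), the transcription factor of the IRE1 branch, was not called. Its lowest, median and highest values were 125.0, 142.3 and 301.8 CPM in refed K556R livers, and 106.7, 127.7 and 190.2 CPM in fasted K556R livers. They were 130.7, 167.5 and 305.3 CPM in refed WT livers, and 95.5, 145.8 and 183.3 CPM in fasted WT livers. The groups overlapped, and the highest values of the refed groups came from refed K556R replicate 4 of batch 1 and refed WT replicate 1 of batch 2. The difference averaged over genotypes was log2 0.24 (SE 0.13, adjusted p = 0.177, edgeR), and log2 0.056 (adjusted p = 0.683) without those libraries. They were chosen for high values, so a smaller difference follows from the choice.

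Hspa5 (ENSMUSG00000026864, chr2:34771970-34777547), encoding BiP, rose in refed livers. It stood at 398.4, 567.2 and 1163 CPM (lowest, median, highest) in refed K556R livers, against 374.6, 406.1 and 448.1 CPM in fasted K556R livers. In WT the values were 349.2, 566.1 and 722.2 CPM in refed livers, against 295.6, 360.5 and 530.9 CPM in fasted livers. The refed median lay above the highest fasted library in each genotype, while the lowest refed libraries lay within the fasted range. The average change was log2 0.59 (SE 0.13), a 1.5-fold increase, with an edgeR adjusted p of 0.000782.

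The proteins that work with BiP gave a mixed picture. Hyou1 (chr9:44379490-44392369) encodes a large Hsp70-related exchange factor for BiP, and it rose by log2 0.73 (SE 0.14, adjusted p = 0.00023, edgeR). Its values were 77.6, 119.3 and 252.4 CPM in refed K556R livers, against 62.3, 77.3 and 94.3 CPM in fasted K556R livers. In WT they were 69.3, 119.7 and 159.5 CPM in refed livers, against 54.7, 69.2 and 104.1 CPM in fasted livers. As with Hspa5, each refed median was above every fasted library of its genotype.

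Dnajb11 (chr16:22857845-22879634) encodes ERdj3, a J-domain partner that brings unfolded clients to BiP. It stood at 55.4, 64.3 and 112.2 CPM in refed K556R livers, against 52.4, 54.7 and 67.4 CPM in fasted K556R livers. WT livers had 52.5, 65.0 and 90.3 CPM when refed, against 46.3, 52.0 and 61.9 CPM when fasted. The groups overlapped at the low end, and the average rise was log2 0.34 (SE 0.090, adjusted p = 0.00483, edgeR).

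Sdf2l1 (chr16:17130138-17132383), which encodes a partner of ERdj3, had the lowest mean level per kilobase and the widest spread of the 10, with an SD of 0.62 in log2 CPM over the libraries. It stood at 6.49, 9.55 and 31.5 CPM in refed K556R livers, against 5.45, 7.71 and 13.1 CPM in fasted K556R livers. WT livers had 6.55, 9.94 and 22.5 CPM when refed, against 4.29, 7.04 and 10.7 CPM when fasted. Its groups overlapped over most of their range. The average rise of log2 0.65 (SE 0.22, adjusted p = 0.0244, edgeR) was log2 0.35 (adjusted p = 0.103) without refed K556R replicate 4 of batch 1 and refed WT replicate 1 of batch 2. Both libraries were chosen for high values among the 10 genes, so a smaller rise follows from the choice.

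Dnajb9 (chr12:44205559-44210326) encodes ERdj4, a J-domain protein that can hold BiP on IRE1, and was not called. It stood at 38.7, 55.0 and 106.8 CPM in refed K556R livers, against 43.4, 47.0 and 55.7 CPM in fasted K556R livers. WT livers had 30.8, 50.4 and 70.6 CPM when refed, against 36.1, 44.0 and 58.3 CPM when fasted. The lowest library of each genotype was a refed one, and the average difference was log2 0.26 (SE 0.11, adjusted p = 0.0857, edgeR).

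Of the pair of folding proteins outside the BiP cycle, Hsp90b1 was not called and Pdia4 rose. Hsp90b1 (chr10:86690209-86705509) encodes GRP94, the Hsp90 of this compartment. It stood at 285.6, 373.1 and 678.5 CPM in refed K556R livers, against 297.7, 335.4 and 384.4 CPM in fasted K556R livers. WT livers had 302.2, 380.6 and 479.8 CPM when refed, against 288.8, 325.0 and 394.7 CPM when fasted. The average difference was log2 0.24 (SE 0.094, adjusted p = 0.0649, edgeR), and the refed ranges covered most of the fasted ones.

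Pdia4 (chr6:47796141-47813430), encoding the disulfide isomerase ERp72, stood at 118.1, 154.2 and 258.8 CPM in refed K556R livers, against 109.3, 119.5 and 145.6 CPM in fasted K556R livers. WT livers had 118.7, 140.7 and 183.0 CPM when refed, against 94.5, 114.0 and 192.9 CPM when fasted. In WT the highest library was a fasted one, replicate 3 of batch 2. The average rise was log2 0.34 (SE 0.11, adjusted p = 0.0253, edgeR), and the adjusted p was 0.0505 without refed WT replicate 1 of batch 1.

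Manf and Creld2 encode small secreted proteins that are retained in the compartment and released under stress. Manf (chr9:106838312-106891979) had the largest average change of the 10, log2 0.85 (SE 0.17, adjusted p = 0.000317, edgeR), a 1.80-fold rise. It stood at 31.7, 57.5 and 125.9 CPM in refed K556R livers, against 24.5, 32.9 and 33.9 CPM in fasted K556R livers. In WT the values were 31.1, 50.9 and 78.5 CPM in refed livers, against 18.7, 27.9 and 50.7 CPM in fasted livers. In K556R all refed libraries but 1 lay above the fasted range, and in WT the ranges overlapped. Manf overlaps Dcaf1 on the opposite strand and Rbm15b on the same strand, with 20210 and 11249 counts beside its own 25945 over all libraries, and no source used here says whether counting was strand-specific. Its counts are therefore uncertain.

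Creld2 (chr15:88819646-88826683) stood at 17.5, 26.9 and 68.3 CPM in refed K556R livers, against 15.4, 19.5 and 26.1 CPM in fasted K556R livers. WT livers had 16.9, 26.8 and 32.3 CPM when refed, against 15.0, 17.8 and 28.2 CPM when fasted. The refed medians were above the fasted ones and the ranges overlapped. The average rise was log2 0.53 (SE 0.16, adjusted p = 0.0174, edgeR).

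**Figure D2:**
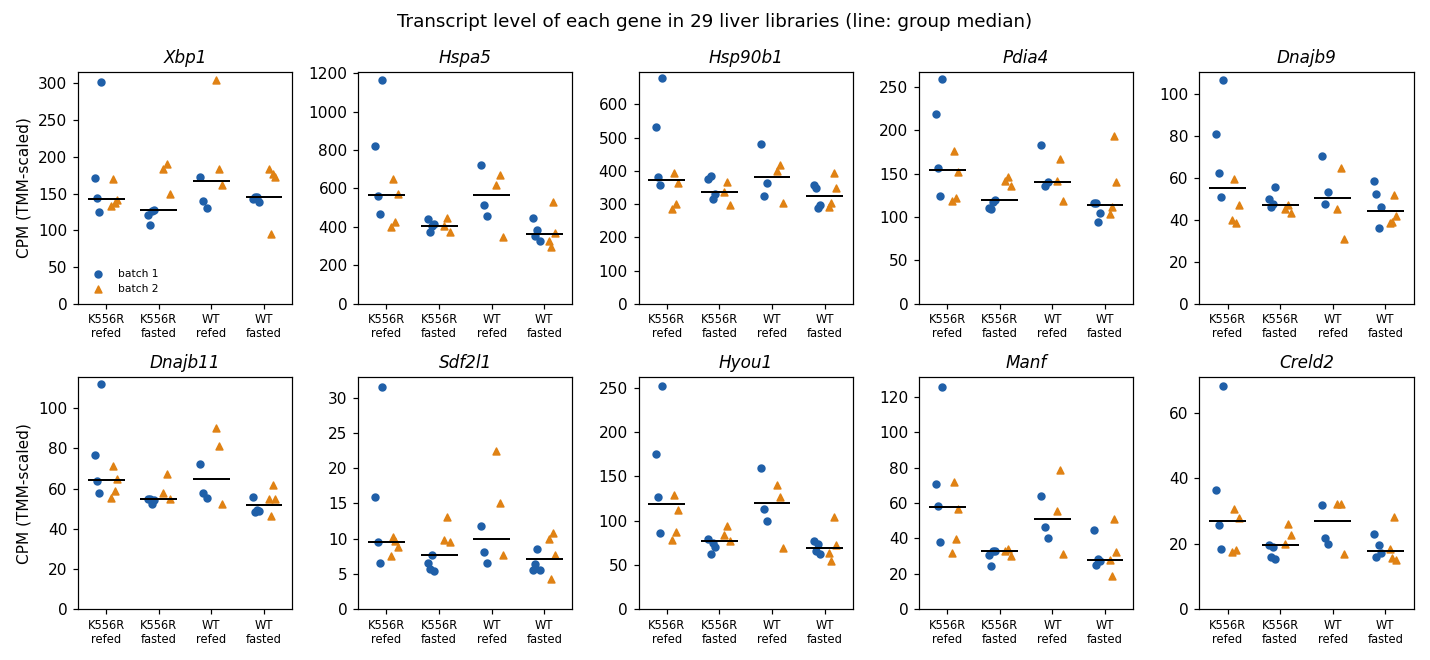
CPM of each of the 10 genes (panels) in the 4 groups, 1 point per library, with circles for batch 1, triangles for batch 2 and a line at the group median. The single high circle in refed K556R livers, at 1163 CPM for Hspa5 and 125.9 CPM for Manf, is replicate 4 of batch 1.

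Within each genotype fewer of the 10 passed. In K556R livers 3 rose on refeeding, Manf by log2 0.98 (SE 0.24, adjusted p = 0.00402), Hyou1 by 0.75 (SE 0.20, adjusted p = 0.00872) and Hspa5 by 0.62 (SE 0.18, adjusted p = 0.0144, edgeR), where 6.97% of tested genes were called higher. The other 7 had fold changes between log2 0.22 for Xbp1 and 0.63 for Sdf2l1. In WT livers 2 rose, Hyou1 by log2 0.72 (SE 0.20, adjusted p = 0.0195) and Hspa5 by 0.55 (SE 0.18, adjusted p = 0.0486, edgeR), where 5.25% of tested genes were called higher. Manf stood at log2 0.72 in WT (adjusted p = 0.0544) and Dnajb11 at 0.37 (adjusted p = 0.0606), and the smallest of the 10 was 0.19 for Dnajb9. The WT count is sensitive to single libraries: it was 0 without refed WT replicate 1 of batch 1 or refed WT replicate 1 of batch 2. DESeq2 called 4 of the 10 in WT livers and 4 in K556R livers. Leaving out 1 library at a time, Hspa5 was called in WT in 11 of 29 fits and Hyou1 in 27 of 29.

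Whether refeeding acted differently in the genotypes was tested by an interaction term in edgeR, which called 0 of the 10 genes and 0% of tested genes. None of the 10 reached an unadjusted p under 0.05, and DESeq2 also called 0. The interaction values ran from log2 -0.065 for Dnajb11 to 0.26 for Manf, and the 95% interval of Manf ran from -0.43 to 0.96, so that differences of that size could not be detected here.

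These interaction values average opposite signs in the batches. In batch 1 alone all 10 were above 0, between log2 0.21 for Hsp90b1 and 0.88 for Sdf2l1, and in batch 2 alone all 10 were below 0, between -1.14 for Sdf2l1 and -0.056 for Pdia4. Because the 10 genes vary together, such shared signs are not 10 separate results. EdgeR called 0 of the 10 and 0% of tested genes in either batch. At an unadjusted p under 0.05 there were 0 in batch 1 and 2 in batch 2, Xbp1 (log2 -0.74, adjusted p = 0.426) and Sdf2l1 (adjusted p = 0.397, edgeR). Without refed K556R replicate 4, batch 1 gave log2 0.004 to 0.31, and without refed WT replicate 1, batch 2 gave -0.74 to -0.062 with 0 at an unadjusted p under 0.05. The difference between the batches was tested itself, and edgeR and DESeq2 each called 0 of the 10, where edgeR called 0% of tested genes. In edgeR 2 had an unadjusted p under 0.05, Xbp1 (log2 1.31, SE 0.46, adjusted p = 0.345) and Sdf2l1 (2.00, SE 0.75, adjusted p = 0.378), beside 1492 of 15603 tested genes. Without both of those refed libraries 0 of the 10 did. The libraries were chosen for high values among these same genes, so a smaller difference between batches follows from the choice.

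In K556R livers the calls came with batch 1. In batch 1 alone, 7 of the 10 genes rose in refed K556R livers, where 4.91% of tested genes were called higher. They are Hspa5, Pdia4, Dnajb11, Sdf2l1, Hyou1, Manf and Creld2, with fold changes between log2 0.54 for Dnajb11 and 1.33 for Sdf2l1. In batch 2 alone, 0 of the 10 were called in K556R livers by edgeR and 0 had an unadjusted p under 0.05, where 4.39% of tested genes were called higher. Fold changes there ran from log2 -0.28 for Xbp1 to 0.61 for Manf. Without refed K556R replicate 4, batch 1 called 3 of the 10 in K556R livers, namely Pdia4 (log2 0.54, adjusted p = 0.0384), Hyou1 (0.85, adjusted p = 0.0107) and Manf (0.88, adjusted p = 0.0207, edgeR), and Hspa5 stood at log2 0.59 (adjusted p = 0.0537). That library was chosen for its high values, so smaller rises without it follow from the choice.

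Single libraries of Hspa5, the BiP gene, show the spread behind these values. Hspa5 in batch 1 stood at 821.6, 562.1, 465.3 and 1163 CPM in refed K556R livers, against 440.5, 374.6, 406.1 and 416.3 CPM in fasted K556R livers. In batch 2 it stood at 398.4, 646.8, 423.7 and 572.3 CPM in refed K556R livers, against 405.5, 448.1 and 375.3 CPM in fasted K556R livers. Every refed library exceeded every fasted one in batch 1, whereas in batch 2 refed replicates 1 and 3 lay within the fasted range. The fold change in K556R livers was log2 0.89 (SE 0.23, adjusted p = 0.0177, edgeR) in batch 1 and log2 0.30 (SE 0.23, adjusted p = 0.434) in batch 2.

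Hyou1 followed the same order in K556R livers. Batch 1 had 175.5, 126.4, 86.0 and 252.4 CPM in refed livers, against 79.3, 62.3, 74.7 and 70.2 CPM in fasted livers. Batch 2 had 77.6, 128.5, 86.7 and 112.2 CPM in refed livers, against 83.9, 94.3 and 77.3 CPM in fasted livers. The refed and fasted libraries were separate in batch 1 and overlapped in batch 2.

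Xbp1 in K556R livers took opposite signs in the batches, with neither value called. Batch 1 had 171.7, 143.7, 125.0 and 301.8 CPM in refed livers, against 120.8, 106.7, 126.0 and 127.7 CPM in fasted livers. Batch 2 had 133.5, 170.5, 136.8 and 140.9 CPM in refed livers, against 184.2, 190.2 and 150.1 CPM in fasted livers. The fold changes were log2 0.64 (SE 0.20, adjusted p = 0.0552, edgeR) in batch 1 and log2 -0.28 (SE 0.22, adjusted p = 0.43) in batch 2.

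Sdf2l1 in K556R livers had the widest spread between batches. Batch 1 had 15.9, 9.49, 6.49 and 31.5 CPM in refed livers, against 6.55, 5.64, 7.71 and 5.45 CPM in fasted livers. Batch 2 had 7.47, 10.2, 9.60 and 8.79 CPM in refed livers, against 9.75, 13.1 and 9.47 CPM in fasted livers. The fold changes were log2 1.33 (SE 0.36, adjusted p = 0.0295, edgeR) in batch 1 and log2 -0.28 (SE 0.31, adjusted p = 0.613) in batch 2.

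In WT livers the differences between the batches ran from log2 -0.44 for Sdf2l1 to 0.45 for Pdia4. In edgeR 0 of the 10 genes were called in either batch alone, where 2.68% of tested genes were called higher in batch 1 and 1.6% in batch 2. At an unadjusted p under 0.05, 4 genes stood higher in batch 1 (Hspa5, Pdia4, Hyou1 and Manf) and 5 in batch 2 (Hspa5, Dnajb11, Sdf2l1, Hyou1 and Manf). Without refed WT replicate 1, chosen for its high values, batch 2 had 0 of the 10 at that level in WT livers. The fit then lacked 1 of the 3 refed WT libraries of batch 2. All 10 fold changes stayed above 0, between log2 0.055 and 0.75, beside 0.048 to 0.86 with that library. Hspa5 in batch 1 stood at 722.2, 512.8 and 458.5 CPM in refed WT livers, against 448.1, 351.8, 385.8 and 326.0 CPM in fasted WT livers. In batch 2 it stood at 619.5, 671.1 and 349.2 CPM in refed WT livers, against 324.3, 295.6, 530.9 and 369.2 CPM in fasted WT livers. Refed and fasted WT libraries were separate in batch 1, and in batch 2 they overlapped, with refed replicate 3 inside the fasted range. Its fold change was log2 0.59 in batch 1 and 0.52 in batch 2.

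Across the genes, every refed library lay above every fasted library for 5 of the 10 in batch 1 of K556R (Hspa5, Pdia4, Dnajb11, Hyou1 and Manf), where 7.99% of tested genes did so. In batch 1 of WT this held for 3 of the 10 (Hspa5, Pdia4 and Hyou1), where 7.77% did. In batch 2 it held for 0 of the 10 in K556R, where 13.6% of tested genes did so, and for 0 of the 10 in WT, where 7.08% did.

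**Figure D3:**
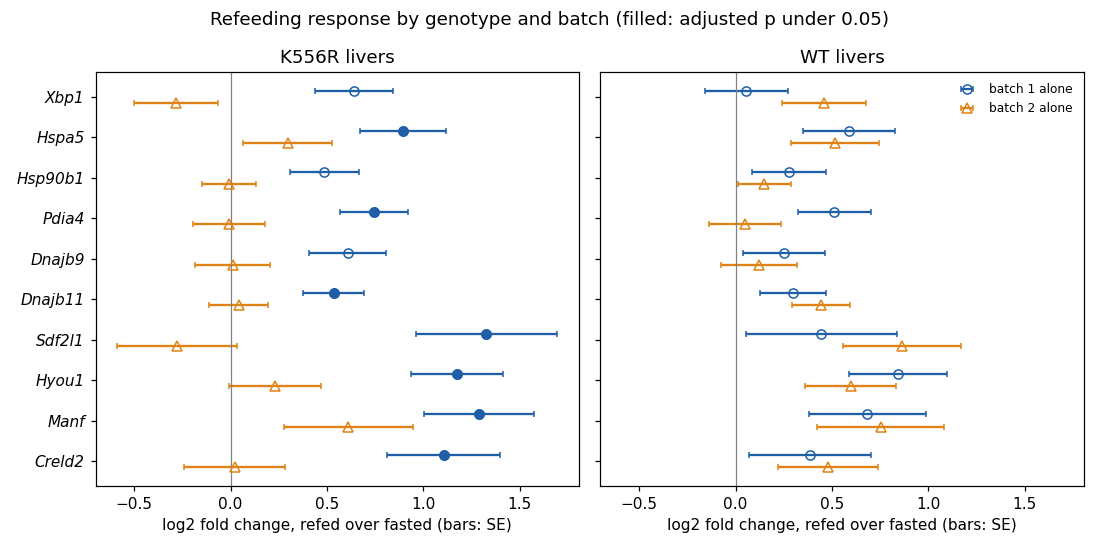
Log2 fold change of refed over fasted livers for each of the 10 genes (rows), fitted in each batch alone, with K556R on the left and WT on the right; bars are SE and filled symbols have an adjusted p under 0.05. Filled symbols appear for 7 genes in batch 1 of K556R and for none in batch 2 or in WT.

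The difference between batches was tested in its own right. For the average of both genotypes, edgeR called 0 of the 10 genes, where 2.74% of tested genes were called. All 10 batch differences were positive, between log2 0.15 and 0.58, in genes that vary together. Of the 10, 2 had an unadjusted p under 0.05, Pdia4 (0.58, adjusted p = 0.109) and Hyou1 (0.57). Such an unadjusted p was reached by 2899 of the 15603 tested genes. In K556R livers alone 0 of the 10 were called, where 3.54% of tested genes were. There 5 had an unadjusted p under 0.05, namely Xbp1 (log2 0.89, adjusted p = 0.11), Pdia4 (0.72, adjusted p = 0.138), Sdf2l1 (1.57, adjusted p = 0.085), Hyou1 (0.91, adjusted p = 0.157) and Creld2 (1.05, adjusted p = 0.165). Over all tested genes 3095 of 15603 did. Without refed K556R replicate 4 of batch 1 and refed WT replicate 1 of batch 2, it was 2 of the 10 members. These libraries were chosen for high values among the same genes, so a smaller difference follows from the choice. In WT livers alone 0 were called, where 0% of tested genes were called. There 0 had an unadjusted p under 0.05, beside 1355 of 15603 tested genes. DESeq2 called 0 of the 10 in all 3 of these tests.

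With both genotypes averaged, batch 1 alone called 7 of the 10, where 9.17% of tested genes were called higher, and batch 2 alone called 0, where 7.73% were. In batch 2, Hspa5, Dnajb11, Hyou1 and Manf had an unadjusted p under 0.05, Manf standing at log2 0.68 (SE 0.23, adjusted p = 0.0564, edgeR). Without refed WT replicate 1, a library chosen for its high values, 1 of the 10 did in batch 2. In WT livers Manf stood at log2 0.68 in batch 1 and 0.75 in batch 2, neither of them called.

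The second comparison was K556R against WT. None of the 10 genes was called in refed livers, in fasted livers or as the mean of both. EdgeR called 0%, 0.103% and 1.24% of tested genes in these 3 contrasts. In each of them 0 of the 10 had an unadjusted p under 0.05 and DESeq2 called 0. Over all 15603 tested genes, 1319, 1479 and 2291 had such a p in edgeR. Among the 10 the smallest unadjusted p was 0.223, for Dnajb9 in refed livers.

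In refed livers these values too average opposite signs in the batches. Batch 1 alone had all 10 genes above 0 in K556R over WT, between log2 0.31 for Pdia4 and 0.85 for Sdf2l1. Batch 2 alone had all 10 below 0, between log2 -0.73 for Sdf2l1 and -0.001 for Pdia4, with Xbp1 at -0.58. Here too the genes vary together, and a shared sign is not 10 separate results. EdgeR called 0 of the 10 in either batch, where 0.0328% of tested genes were called in batch 1 and 0.0456% in batch 2. At an unadjusted p under 0.05 there was 1 in batch 1, Sdf2l1 (adjusted p = 0.55, edgeR), and 2 in batch 2, Xbp1 (adjusted p = 0.308) and Sdf2l1 (adjusted p = 0.348).

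Both ranges were refitted without refed K556R replicate 4 of batch 1 or refed WT replicate 1 of batch 2. These libraries were chosen for high values among the same genes, so smaller differences without them follow from the choice. Without refed K556R replicate 4, batch 1 gave log2 -0.011 to 0.28 with 9 of the 10 above 0, and without refed WT replicate 1, batch 2 gave -0.34 to 0.046 with 1 above 0. In both cases 0 of the 10 had an unadjusted p under 0.05. Tested itself, the difference between the batches was positive for all 10, between log2 0.31 and 1.58, and edgeR and DESeq2 each called 0 of them, where edgeR called 0% of tested genes. In edgeR 3 had an unadjusted p under 0.05, Xbp1 (log2 0.90, SE 0.33, adjusted p = 0.287), Dnajb11 (0.58, SE 0.24, adjusted p = 0.337) and Sdf2l1 (1.58, SE 0.53, adjusted p = 0.252), beside 1962 of 15603 tested genes. Without both of those libraries 0 of the 10 did.

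Fold changes of K556R over WT, as the mean of both feeding states, were small. Xbp1 stood at log2 -0.088, with a 95% interval from -0.35 to 0.18, and the other 9 lay between 0.075 for Hsp90b1 and 0.14 for Sdf2l1. The intervals were narrowest for Dnajb11 (-0.11 to 0.26) and Hsp90b1 (-0.12 to 0.27), and that of Hspa5 ran from -0.12 to 0.40. The interval of Sdf2l1 was the widest, from -0.30 to 0.59. Medians over the 10 genes were log2 0.15 in refed livers, 0.050 in fasted livers and 0.11 for the mean, beside -0.001, 0 and 0.002 over all tested genes. Signs depended on single libraries: without refed K556R replicate 4 of batch 1, the mean differences of Sdf2l1, Manf and Creld2 were log2 -0.043, -0.019 and -0.001.

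**Figure D4:**
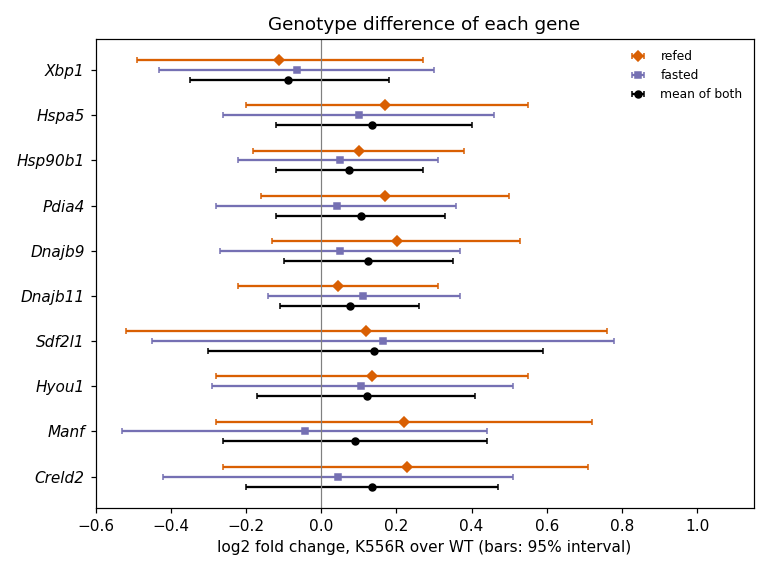
Log2 fold change of K556R over WT for each of the 10 genes (rows) in refed livers, in fasted livers and as the mean of both, with 95% intervals as bars. Every interval crosses 0, and that of the mean for Sdf2l1 runs from -0.30 to 0.59.

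The 10 genes varied together from library to library. After the mean of each batch was removed, the 45 pairs of genes had a median Pearson r of 0.87 over the 29 libraries, from 0.58 for Xbp1 with Dnajb9 to 0.98 for Hspa5 with Hyou1. The median Spearman rho was 0.79. Without the 2 libraries farthest from the median, refed K556R replicates 4 and 1 of batch 1, the median r was 0.78 (0.34 to 0.97). When the mean of each group within each batch was removed instead, the median r was again 0.87. This takes out differences between group means, while spread within the refed and fasted groups remains. Without refed K556R replicates 4 and 3 of batch 1, the median r of that version was 0.81 (0.38 to 0.98). Xbp1 followed the others least closely, with r = 0.75 to the mean of the other 9, against 0.87 to 0.97 for the remaining genes. The libraries are shared by all genes and these values carry no test.

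Among 8530 other genes whose log2 CPM averaged 3 or more, the 10 whose batch-centred profile was most like the average of the members were Calr (r = 0.973), Syvn1 (0.956), Pdia3 (0.933), Spcs2 (0.928), Slc35b1 (0.905), Ubxn4 (0.901), Gmppb (0.897), Alg2 (0.874), Magt1 (0.872) and Pdia6 (0.865). The median over all 8530 was 0.059. This ranking used all 29 libraries, among them the outlying refed K556R ones. Calr encodes calreticulin, a calcium-binding lectin chaperone, Pdia3 and Pdia6 disulfide isomerases, Syvn1 the ubiquitin ligase HRD1 of endoplasmic reticulum-associated degradation, and Spcs2 a subunit of the signal peptidase. With group means within batches removed, 8 of these 10 were again among the 10 most alike.

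The rest of the system was read from 7 further lists of genes, by the refeeding contrast averaged over genotypes, in which 12.9% of tested genes were called higher and 12.8% lower. Among other folding enzymes and lectins, 6 of 25 rose and 0 fell, with a median of log2 0.088. Calr stood at 488 CPM in refed and 398 CPM in fasted K556R livers and at 454 CPM in refed and 371 CPM in fasted WT livers (group means), a rise of log2 0.30 (SE 0.086, adjusted p = 0.0105, edgeR). Txndc5 (0.19), Fkbp14 (0.33) and Erp44 (0.20) rose too. These changes were smaller than that of Hspa5, at 0.59; the difference between genes was not tested.

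The sensors moved in both directions. Of 9 tested genes for sensors, the ATF6 proteases and NF-Y, 3 rose and 2 fell, with a median of log2 -0.01. Ern1, which encodes IRE1, averaged 99.8 CPM in refed and 73.2 CPM in fasted K556R livers and 94.6 CPM in refed and 66.1 CPM in fasted WT livers, a rise of log2 0.49 (SE 0.094, adjusted p = 0.00022, edgeR). Atf6 fell by 0.21 on the log2 scale (SE 0.041, adjusted p = 0.000181), and Mbtps1, the first protease to cut ATF6, by 0.13 (SE 0.032, adjusted p = 0.00228). Nfyb, a subunit of the NF-Y complex that binds the CCAAT part of the elements shown above, rose by log2 0.36 (SE 0.052, adjusted p = 3.75e-06).

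Of the 14 tested genes of the PERK and ATF4 arm, 5 fell and 2 rose, and the median was log2 -0.22 with 6 of the 14 above 0. The median was log2 -0.032 in K556R livers, with 7 above and 7 below 0, and -0.31 in WT livers. The 2 that rose, named after their values were seen, encode transcription factors of this arm, Atf4 (log2 0.25, SE 0.061, adjusted p = 0.00226, edgeR) and Atf5 (0.39, SE 0.10, adjusted p = 0.00579). Chac1, a glutathione-degrading enzyme induced by ATF4, averaged 1.60 CPM in refed and 4.67 CPM in fasted K556R livers and 2.09 CPM in refed and 7.53 CPM in fasted WT livers, and fell by 1.68 on the log2 scale (SE 0.16, adjusted p = 6.6e-09, edgeR). Cebpb, a transcription factor, fell by 1.26 (SE 0.099, adjusted p = 9.59e-11), Trib3, a pseudokinase that restrains AKT, by 1.06 (SE 0.13, adjusted p = 5.61e-07) and Sesn2, an amino acid sensor, by 0.70 (SE 0.089, adjusted p = 6.74e-07). Several of these genes respond to amino acids, glucagon or insulin as well, so the list is not specific to this compartment.

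Degradation genes were split. Of 20, 4 rose and 2 fell, with a median of log2 0.072. Herpud1, which recruits degradation complexes in the membrane, averaged 233 CPM in refed and 402 CPM in fasted K556R livers and 294 CPM in refed and 460 CPM in fasted WT livers, and fell by 0.71 on the log2 scale (SE 0.11, adjusted p = 1.72e-05, edgeR). Herpud2, its relative, fell by 0.16. Derl2, a channel component, rose by log2 0.55 (SE 0.061, adjusted p = 5.78e-08), Syvn1 by 0.37 and the ubiquitin-conjugating enzyme gene Ube2j2 by 0.18.

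Genes for entry into and exit out of the compartment were called in both directions. Of 23 translocon and signal peptidase genes, 6 rose and 1 fell (median log2 0.085), the clearest by p being Ssr2 (0.30), Srprb (0.38), Ssr1 (0.28) and Spcs2 (0.35). Of 19 tested genes for the COPII coat and export, 8 rose and 3 fell (median log2 0.044), with Sec23b at 0.42 and its coat partner Sec24d at -0.26. Of 9 genes for calcium handling and stress membrane proteins, 0 rose and 3 fell (median log2 -0.13), among them Creb3l3, a liver transcription factor released from the membrane by the same proteases as ATF6, at -0.33 (SE 0.053, adjusted p = 2.08e-05, edgeR).

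**Figure D5:**
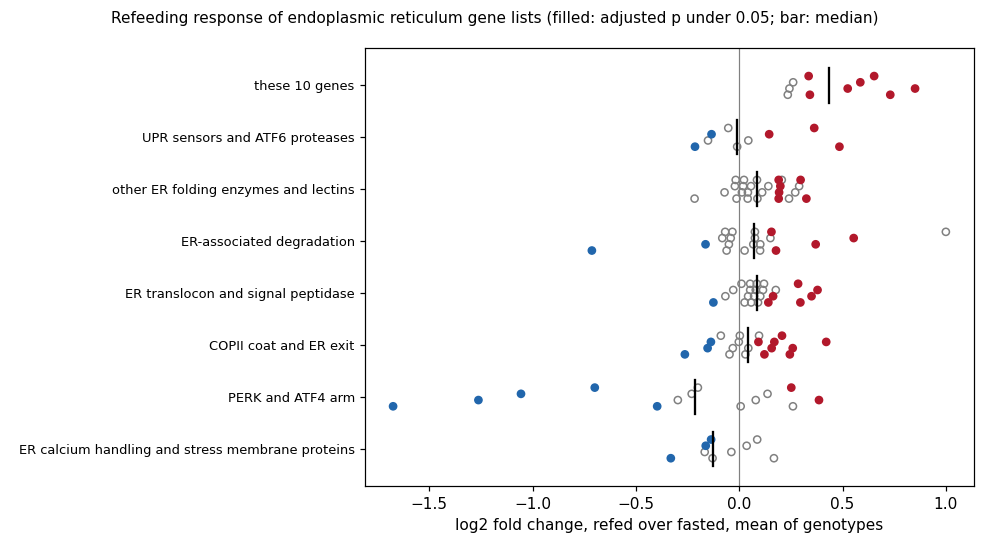
Log2 fold change of refed over fasted livers, averaged over genotypes, for the 10 genes and for 7 further lists, 1 point per tested gene; filled red points were called higher, filled blue points lower, and the bar is the list median. The median of the 10 genes lies at log2 0.43 and that of the PERK and ATF4 arm at -0.22.

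For K556R against WT, as the mean of both feeding states, 2 of the 119 tested genes in the 7 lists were called (1.68%), both lower in K556R, beside 1.24% of all tested genes called in either direction. Cebpb fell by 0.43 on the log2 scale (SE 0.097, adjusted p = 0.0222, edgeR) and Tmbim6, which encodes a membrane protein that limits calcium release and cell death, by 0.16 (SE 0.036, adjusted p = 0.0224). Os9, a lectin that selects glycoproteins for degradation, stood at log2 -0.14 (adjusted p = 0.0596), Cnpy2 at -0.17 (adjusted p = 0.103) and Chac1 at -0.52 (adjusted p = 0.106), none of them called.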

How the data were processed

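The table deposited by the authors gives whole-number read counts per gene, with 1 column for each of 29 liver libraries. Per the submitters' processing notes, the tools were HTSeq, STAR, STAR-Fusion, TopHat, edgeR and DESeq2 and the build was mm10, with no versions or roles. The annotation release and the strand setting are not given in the sources used here, so genes that overlap on opposite strands cannot be separated. Of 54532 identifiers, 54409 were matched to GENCODE M21, and 0.025% of counts fell on the 123 left unmatched. Library totals lay between 14385218 and 27278251. The counts carry no molecular identifiers, so PCR copies stay in them.

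Genes were kept by filterByExpr in edgeR 4.0.16 (count floor 10, total floor 15). This kept 15603 genes holding 99.92% of the counts. After TMM scaling, all 29 libraries entered a single quasi-likelihood fit whose terms were the 4 groups and the batch (R 4.3.3, limma 3.58.1, common biological coefficient of variation 0.191). Differences between batches came from a model with 1 coefficient per group and batch. Adjusted p-values are Benjamini-Hochberg over all tested genes of a contrast, and a gene is called below 0.05. Standard errors are those implied by the F statistic. CPM uses TMM-scaled totals, with a prior count of 2 before taking log2.

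Alternatives were median ratio scaling, no filter, DESeq2 1.42.0, no batch term, each batch alone, a replicate block and leaving out each library in turn. The fits that left out 2 refed libraries, 2 refed and 1 fasted, or 1 refed library within a batch were added after seeing the data. So were the batch tests within a genotype, in refed livers and of the interaction. The 10 genes and all lists were chosen with earlier results of these data known. From each further list, the 4 genes with the smallest p on refeeding and the 2 with the smallest p between genotypes could be named. Prox1 was named to check the labels, but its whole-gene counts do not separate the alleles and cannot check the genotype. Syvn1 is named among the degradation genes because it was among the 10 most alike. Ero1a and Ero1b were matched under the older symbols Ero1l and Ero1lb. Ern2, Kdelr3 and Slc7a11 had too few counts to test. The procedure was also run on simulated counts, drawn for each gene independently. They hold no shared shift of genes within a library, which the 10 genes showed here. Libraries of a group and batch were compared in 39 pairs for repeated deposits, and chi-square divided by its degrees of freedom was 11 to 100, beyond counting error in every pair. Figures were drawn with Python 3.11.15 and matplotlib 3.10.9.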

Additional observations from a re-analysis of the deposited data

Results flagged for a closer look

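In 9 of the 40 combinations of gene and group, the highest library stood apart from the others by Dixon's criterion at 95%, which chance meets in about 1 of 20 groups. In refed K556R livers this was replicate 4 of batch 1 for 5 genes. Xbp1 stood at 301.8 CPM there (125.0 to 171.7 CPM in the other 7 libraries), Dnajb11 at 112.2 CPM (55.4 to 77.0), Sdf2l1 at 31.54 CPM (6.49 to 15.9), Manf at 125.9 CPM (31.7 to 71.8) and Creld2 at 68.31 CPM (17.5 to 36.4). Refed WT replicate 1 of batch 2 stood at 305.3 CPM for Xbp1, with the other 5 libraries between 130.7 and 184.2 CPM.

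In fasted K556R livers, replicate 2 of batch 2 had 67.41 CPM of Dnajb11 and the other 6 libraries 52.4 to 58.0 CPM. In fasted WT livers, replicate 3 of batch 2 had 192.9 CPM of Pdia4 (94.5 to 139.8 CPM in the other 7) and 104.1 CPM of Hyou1 (54.7 to 76.7 CPM). The 10 genes vary together, so the flags within 1 library are not separate events.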

How the results depend on the processing

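The number of the 10 genes called on refeeding depended on the processing. In WT it was 2, and became 4 by DESeq2, 3 without the low-count filter, 1 without a batch term and 1 with the replicate block. Batch 1 alone and batch 2 alone each gave 0. The WT count was 4 without refed K556R replicate 4 of batch 1 and refed WT replicate 1 of batch 2. With fasted WT replicate 3 of batch 2 left out too it was 5. All 3 libraries stood out by high values among these same genes. Leaving out a high fasted library raises the refeeding difference in WT, so that increase follows from the choice. Of the fits to 1 batch, batch 1 without refed K556R replicate 4 gave 1 (Hyou1) and batch 2 without refed WT replicate 1 gave 0. In K556R it was 3, and became 4 by DESeq2, 7 in batch 1 alone and 0 in batch 2 alone, also without 1 refed WT library there. For the mean it was 7, and became 6 with the replicate block and 0 in batch 2 alone, there with or without that library. With each library dropped in turn, the counts were 0 to 4 in WT, 3 to 5 in K556R and 6 to 9 for the mean, where 9 came without refed K556R replicate 3 or refed WT replicate 3 of batch 2.

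The batch difference of refeeding gave 0 called genes, and 1 without the low-count filter (Pdia4). In K556R it gave 0, and 2 without that filter (Xbp1 and Sdf2l1). With 1 library left out these counts ran from 0 to 1 and from 0 to 4, the highest without refed K556R replicate 3 of batch 1. The genotype contrasts, the interaction and the other batch tests gave 0 under every alternative run for them.

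Signs turned for values that were not called. On refeeding in K556R, batch 2 alone gave log2 -0.284 for Xbp1, -0.007 for Hsp90b1, -0.008 for Pdia4 and -0.276 for Sdf2l1, and -0.283, -0.005, -0.006 and -0.274 without 1 refed WT library. Under that last setting Xbp1 stood at log2 -0.074 for the mean of genotypes. For K556R against WT, Xbp1 was log2 0.039 in batch 1 alone and 0.005 without refed WT replicate 1 of batch 2. Batch 2 alone gave -0.07 for Hsp90b1, -0.048 for Dnajb11, -0.164 for Sdf2l1 and -0.066 for Manf. Without refed K556R replicate 4 of batch 1, Sdf2l1 was -0.043, Manf -0.019 and Creld2 -0.001, and without both refed libraries Manf was -0.01. With each library dropped in turn, the genotype difference ran from -0.189 to 0.005 for Xbp1, -0.043 to 0.26 for Sdf2l1, -0.019 to 0.172 for Manf and -0.001 to 0.192 for Creld2. The causes were not tested. Of the other single-gene values for refeeding and for the mean genotype difference, 1467 kept direction and call, 55 lost the call and 40 gained it. For K556R against WT in refed livers, batch 2 alone turned the sign of 9 of the 10 genes and batch 1 alone of 1, and for the interaction batch 2 alone turned 7, batch 1 alone 3 and leaving out the 2 refed libraries 5, all of them values that were not called.

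Libraries that share a repeat number in the same batch had residual correlations of -0.39 to 0.36 over 40 pairs (median -0.029). Other pairs were not set beside them, so whether the numbers pair the libraries was not settled. Beyond the WT count, the replicate block moved no count of members by more than 1.5 times. Counts were 74 or more for every member in every library.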
